A study of Rattus norvegicus with 22 samples.

Results

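The 8 genes described here serve neutrophils to grow, to sense microbes and to kill them, and were measured in rat tongue carcinoma. They were chosen by name as Csf3, Csf3r, Fpr1, Cybb, Ncf1, Camp, Mpo and Elane, and all 8 were found, each on 1 probe, among the 22436 gene symbols and 30367 probes of the array. None was absent. The choice was by name and not by a cut on the differences between carcinoma and normal tissue. The group was, however, set up with results of these arrays already known. The tissue came from 11 male F344 rats, an inbred strain, that were given the carcinogen 4-nitroquinoline-1-oxide (4-NQO) at 20 ppm in drinking water over 10 weeks. At about 33 weeks of age, 23 to 26 weeks after the first exposure, each rat gave 1 piece of oral squamous cell carcinoma (OSCC) from the tongue and 1 piece of neighbouring tongue of normal appearance. The sample titles call the animals untreated and the normal pieces are labelled with no treatment, whereas the deposited protocol takes both pieces from rats that drank 4-NQO, and that description is followed here. No tongue from a rat without 4-NQO was analysed here, so every normal piece is exposed tissue.

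Neutrophils are made in bone marrow under the growth factor G-CSF (Csf3), which acts through its receptor Csf3r. The granules are filled in order during this development. The azurophil granule enzymes myeloperoxidase (Mpo) and neutrophil elastase (Elane) are transcribed in promyelocytes, the specific granule peptide cathelicidin (Camp) is transcribed in myelocytes and metamyelocytes, and transcription of Mpo and Elane has largely stopped by the time the mature cell enters blood and tissue. Mature cells keep transcripts for surface receptors such as Csf3r and the formyl peptide receptor Fpr1, and for the superoxide-producing NADPH oxidase, whose membrane subunit is gp91phox (Cybb) and whose cytosolic organizer is p47phox (Ncf1). Cybb, Ncf1 and Fpr1 are also transcribed in monocytes and macrophages, so in whole tissue they do not belong to neutrophils alone. The cells that gave the signal of the other members, Csf3r and Camp among them, were not identified here.

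The comparison of receptor and oxidase genes with the azurophil granule genes rests on single 60-base probes. The 4 shown here carry its largest differences on one side and both of its precursor genes on the other. They are written 5′ to 3′ in lower case as the array files give them, with no part marked.
Csf3r: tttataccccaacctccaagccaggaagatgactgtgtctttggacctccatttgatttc
Cybb: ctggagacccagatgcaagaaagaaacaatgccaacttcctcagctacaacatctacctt
Mpo: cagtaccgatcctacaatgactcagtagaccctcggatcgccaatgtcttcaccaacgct
Elane: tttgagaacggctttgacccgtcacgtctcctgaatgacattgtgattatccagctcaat
On rat assembly rn4 the array annotation placed the Csf3r probe at chr5:145393491-145393550, the Cybb probe at chrX:25518505-25518564 and the Mpo probe at chr10:76094059-76094118. The Elane probe was placed at chr7:11330273-11330751, a span of 479 bases for a 60-base sequence, so that it joins separated stretches of the genome. The GC content of the probes was 45% for Csf3r, Cybb and Elane and 51.7% for Mpo.

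The 11 OSCC and 11 normal arrays were compared on the log2 scale, with every signal expressed relative to the 75th percentile of its own array. The 75th percentile lay between 236.8 and 654.9 units in normal tissue and between 338.7 and 1414 units in OSCC. The lowest log2 signal of any probe well above background lay between -4.49 and -3.13 on the normal arrays and between -5.64 and -3.65 on the OSCC arrays, so the same dim spot could fall to a lower relative value in OSCC. All normal arrays were scanned on 1 day together with the OSCC of animals 4 and 9, and the other 9 OSCC arrays were scanned on another day. A gene was called when the limma adjusted p was below 0.05 and the change at least 2-fold. Of all 30367 probes, 6.86% were called higher and 6.97% lower in OSCC. These were 2083 and 2118 probes, and scaling by the array median gave 1541 higher and 3154 lower. The median difference of all probes was -0.24, and between -0.44 and -0.03 under other scalings of the arrays.

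In these terms 5 of the 8 genes rose in OSCC: Csf3, Csf3r, Cybb, Ncf1 and Camp. None of the 8 was called lower by limma, also none at an unadjusted p below 0.05 and none by the methods' paired test, and Fpr1, Mpo and Elane were not called. The median difference of the 8 was 1.35. In whole tissue, more cells of a type and more RNA in each cell cannot be told apart.

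**Figure D1:**
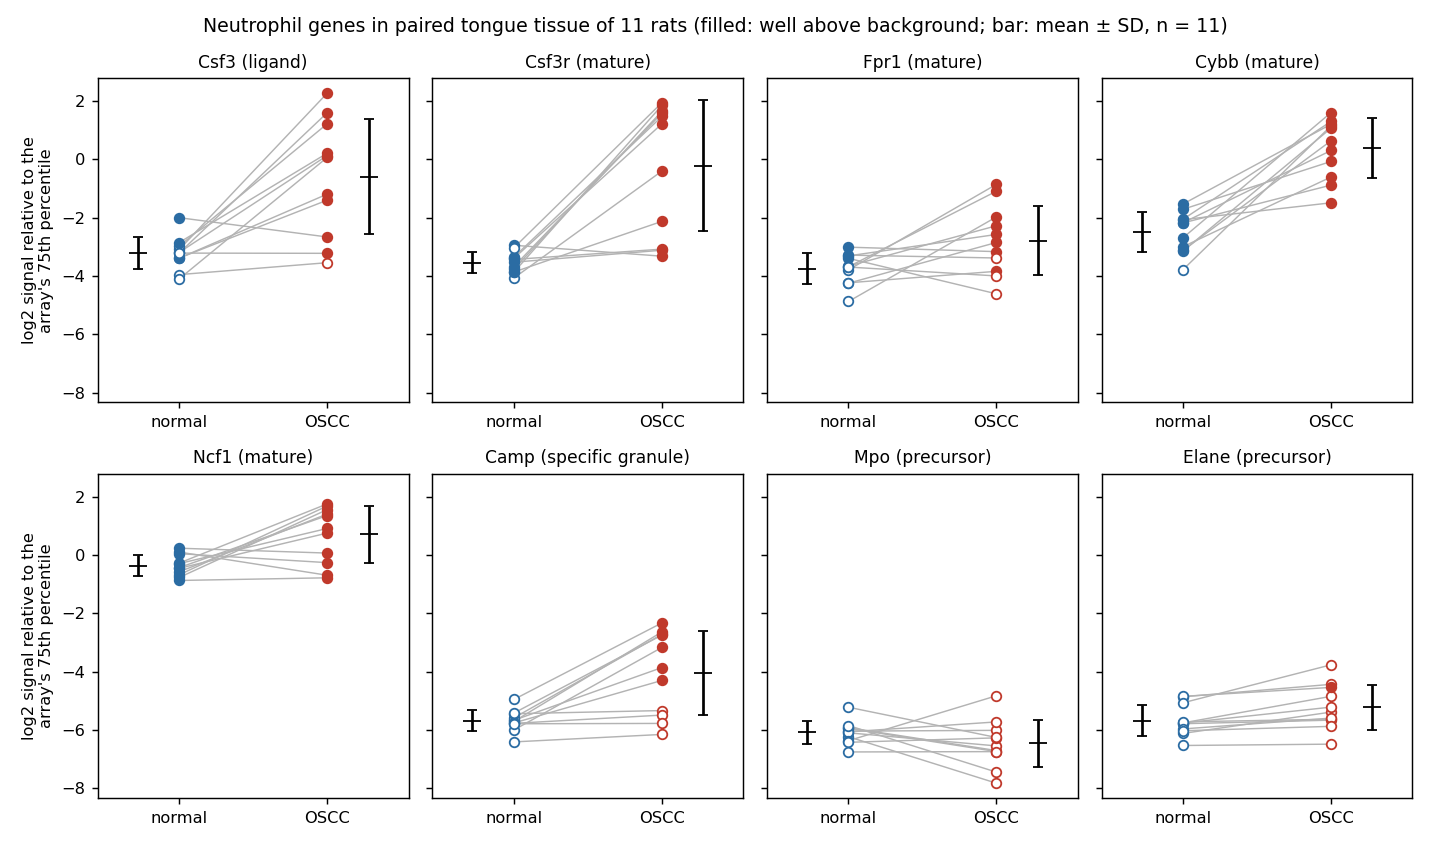
Log2 signal relative to the array's 75th percentile (vertical axis) of the 8 genes in normal tissue and OSCC, with a grey line joining the pieces of 1 rat, filled points for spots well above background, and the mean with SD (n = 11) beside each column. The receptors and oxidase genes spread upward in OSCC, with all 11 Cybb values above every normal value, while all Mpo points are open.

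The growth factor gene Csf3 was found from -4.10 to -2.01 in normal tissue, with a median of -3.21, and from -3.55 to 2.26 in OSCC, with a median of 0.06. By the scanner software's flag, its spot stood well above background on 5 arrays of normal tissue and on 10 of OSCC. The OSCC of 8 animals (4, 9, 11, 13, 16, 17, 25 and 26) was above every normal piece. Csf3 rose by 2.62 ± 0.55 (SE, n = 11), or 6.15-fold, with a limma adjusted p of 0.0033, and was higher in 9 of 11 pairs. The difference was 1.42 under normexp background correction and 3.64 without animals 21, 22 and 24, and the call held in both. The within-rat difference was -0.66 in animal 24, -0.01 in animal 22 and 0.41 in animal 21, and at least 1.98 in each of the other animals.

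Its receptor Csf3r showed the largest mean difference of the group. The normal values were close together, from -4.08 to -2.95 with a median of -3.53, and the OSCC values ranged from -3.32 to 1.94 with a median of 1.21. Its spot passed the background flag on 8 arrays of normal tissue and on all 11 of OSCC. Csf3r rose by 3.33 ± 0.63 (SE, n = 11), or 10.03-fold, with a limma adjusted p of 0.0019, and was higher in 10 of 11 pairs. It was 2.33 under normexp and 4.36 without animals 21, 22 and 24, called in both. The OSCC values did not form a single range. In the OSCC of animals 4, 11, 13, 16, 25 and 26 the value lay between 1.21 and 1.94 and in animal 9 it was -0.41, whereas animals 17, 21 and 24 gave -3.12, -3.32 and -3.08, within the range of the normal values, and animal 22 gave -2.13. The within-rat difference was 5.26, 3.67, 5.72, 5.40 and 4.61 in animals 4, 9, 11, 13 and 16. It was 0.41, -0.37, 1.74 and 0.35 in animals 17, 21, 22 and 24, and 4.82 and 4.97 in animals 25 and 26. The ligand and the receptor were both above every normal array in 7 animals. Animal 17 had Csf3 above all normal pieces without Csf3r, and animal 22 had Csf3r above them without Csf3.

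Fpr1, which senses formylated bacterial and mitochondrial peptides, had a smaller mean difference. It ranged from -4.88 to -3.02 in normal tissue, with a median of -3.69, and from -4.62 to -0.86 in OSCC, with a median of -2.85. The mean difference was 0.96 ± 0.39 (SE, n = 11), or 1.95-fold, with a 95% interval from 0.13 to 1.80 and a limma adjusted p of 0.058, so Fpr1 was not called. It was higher in 7 of 11 pairs, by as much as 2.93 in animal 11, and lower in the other 4. Without animals 21, 22 and 24 the difference was 1.20 with a limma adjusted p of 0.047, and under normexp it was 0.25. Its spot passed the background flag on 4 arrays of normal tissue and on 8 of OSCC.

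Cybb separated the tissues completely. The normal pieces ranged from -3.78 to -1.54, with a median of -2.18, and the OSCC ranged from -1.50 to 1.60, with a median of 0.63. All 11 OSCC values were above all 11 normal values, a separation found for 0.665% of all probes. Cybb rose by 2.88 ± 0.38 (SE, n = 11), or 7.35-fold, with a limma adjusted p of 0.00033, and by 2.06 under normexp, still called. The smallest within-rat difference was 0.58 in animal 17 and the largest was 4.93 in animal 11. Animals 21, 22 and 24, in which Csf3r differed by 1.74 or less, had Cybb differences of 1.64, 1.30 and 2.39.

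Ncf1 was well above background on all 22 arrays, and its mean difference was smaller than that of Cybb. The normal values ran from -0.87 to 0.23 around a median of -0.43, and the OSCC values from -0.78 to 1.75 around a median of 0.91. Ncf1 rose by 1.06 ± 0.32 (SE, n = 11), or 2.09-fold, with a limma adjusted p of 0.022, and was higher in 8 of 11 pairs. It was lower in OSCC in animals 21, 22 and 24, by -0.17, -0.79 and -0.31. The change lay close to the 2-fold limit, and the call was lost when any of animals 9, 11, 16, 25 and 26 was left out, with differences from 0.94 to 1.25 over all 11 omissions, and also under several other settings given in the closing section.

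No normal array showed Camp well above background, and there its relative signal lay between -6.41 and -4.95. In OSCC it ranged from -6.15 to -2.33 with a median of -3.86. The spot was well above background in the OSCC of 7 animals, 4, 9, 11, 13, 16, 25 and 26, where the processed signal was between 45.4 and 158.4 units, and not in animals 17, 21, 22 and 24, where it was between 7.50 and 8.80 units. The mean difference was 1.63 ± 0.35 (SE, n = 11) with a limma adjusted p of 0.0035, a rise. No fold is given, because the mean OSCC signal did not exceed the limit set by the background of the normal arrays. Under normexp the difference was 0.59 and the limma adjusted p was 0.31.

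The azurophil granule enzymes were at or near background throughout. Mpo was not well above background on any of the 22 arrays. Its processed signal before scaling was 5.22 to 6.86 units in normal tissue and 4.99 to 13.9 units in OSCC. After scaling, these spots lay between -6.75 and -5.22 in normal tissue and between -7.82 and -4.82 in OSCC, with a mean difference of -0.38 ± 0.26 (SE, n = 11) and a limma adjusted p of 0.24, and the sign turned to 0.19 under quantile normalization. A change of Mpo was not detectable with this probe.

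Elane was well above background on 1 array, the OSCC of animal 25, with 45.7 units. On the normal arrays the processed signal was 6.44 to 11.6 units, and on the OSCC arrays 5.96 to 45.7 units. The relative signal ran from -6.53 to -4.85 in normal tissue and from -6.48 to -3.76 in OSCC. The mean difference was 0.45 ± 0.13 (SE, n = 11), or 1.37 on the linear scale, with a limma adjusted p of 0.018 but under the 2-fold limit, and it was not called. The OSCC value was nominally the larger one in 11 of 11 pairs, between 0.05 in animal 24 and 1.30 in animal 26, while the mean difference under normexp background correction was -0.05. Before scaling, the OSCC of animals 4, 9, 11, 13, 16, 25 and 26 gave between 17.7 and 45.7 units, above every normal piece, and that of animals 17, 21, 22 and 24 between 5.96 and 8.19 units. These are the same animals in which Camp was and was not above background. After scaling, 4 of the 7 (11, 16, 25 and 26) were above every normal array. On 21 of the 22 arrays the scanner software did not pass the Elane spot as well above background.

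Each gene was also tested alone over the 11 pairs by an exact two-sided sign-flip permutation test, whose smallest possible p is 0.000977 with 2048 sign patterns. The raw p, not adjusted for 8 tests, took that smallest value for Cybb, Camp and Elane. By the same exact test it was 0.00293 for Csf3r, 0.00586 for Csf3, 0.0166 for Ncf1, 0.0518 for Fpr1 and 0.204 for Mpo.

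**Figure D2:**
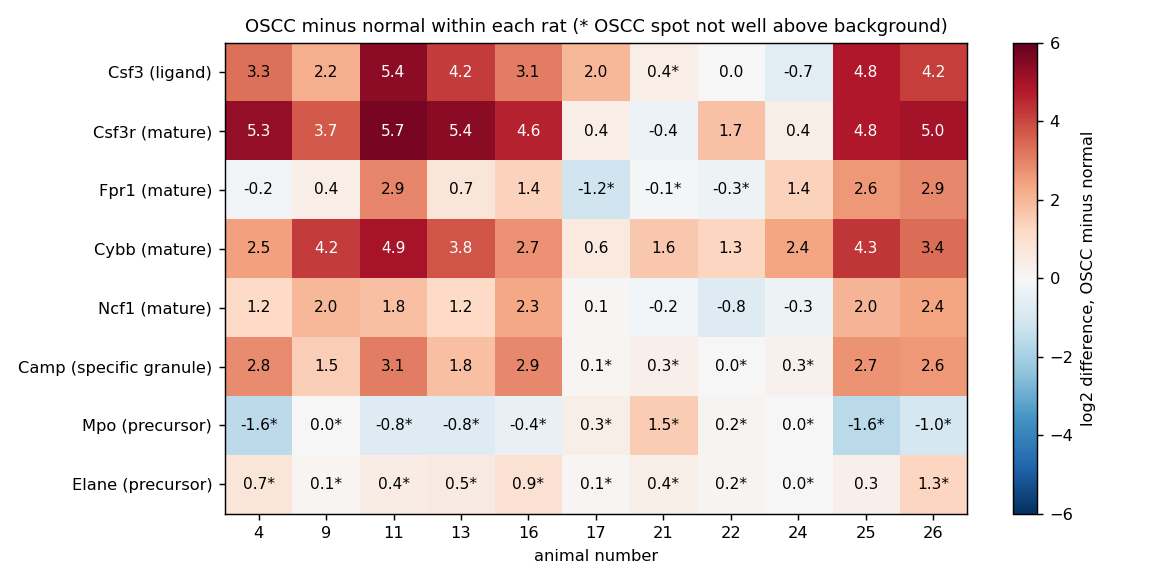
Log2 difference OSCC minus normal (colour and printed value) for each of the 8 genes (rows) in each of the 11 rats (columns, animal number), with a star where the OSCC spot was not well above background. Csf3, Csf3r, Cybb, Ncf1 and Camp have their 7 largest differences in the same columns. The stars fill the Mpo row and all but 1 cell of the Elane row.

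To set mature cell genes against precursor genes within each rat, the mean difference of Mpo and Elane was subtracted from that of Csf3r, Fpr1, Ncf1 and Cybb. The result averaged 2.02 ± 1.67 (SD, n = 11) and was positive in 9 rats. It was 2.63, 2.49, 4.02, 2.90 and 2.53 in animals 4, 9, 11, 13 and 16, 4.08 and 3.26 in animals 25 and 26, and 0.33 and 0.93 in animals 22 and 24. It was negative in animal 17 at -0.25 and in animal 21 at -0.71. The mature side alone averaged 2.06 ± 1.40 (SD, n = 11) and the precursor side 0.04 ± 0.41 (SD, n = 11), so nearly all of the contrast came from the mature genes. The Mpo part of the precursor side depends in part on the scaling of the arrays. In animal 4 the processed Mpo signal was 5.94 units in normal tissue and 6.25 units in OSCC, so it did not fall before scaling. The 75th percentile was 446 and 1414 units, and the negative scaled difference of -1.59 came from this scaling. In animal 21 the processed Mpo signal rose from 6.42 to 13.9 units, so its scaled difference of 1.54 did not come from scaling alone. With both precursor probes near background, their side is not a measured absence of change, and the size of the contrast should be read from the mature side alone. No p is given for this score, since its members were chosen with results known.

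The genes that rose did so largely in the same tumours. In 7 animals (4, 9, 11, 13, 16, 25 and 26) the OSCC values of Csf3r, Csf3, Camp, Ncf1 and Cybb were all above every normal array. In animals 17, 21, 22 and 24 only 2 of the 8 genes were above every normal array, and Cybb was one of them each time. The other was Csf3 in animal 17, Csf3r in animal 22 and Fpr1 in animal 24. In animal 21 it was Mpo, whose spot there was not well above background. The muscle content of the pieces differed along the same line. The summed level of 7 skeletal muscle genes was 1034 to 2196 times the array's 75th percentile in normal tongue. In OSCC it was between 53.4 and 379.2 in those 7 animals and 825, 1985, 1835 and 2053 in animals 17, 21, 22 and 24. Of the 7 muscle genes, 4 were called lower in OSCC by limma, namely Myh4 (-4.47), Mb (-2.43), Ckm (-2.19) and Tnnt3 (-1.89), and Myh2, a fast myosin heavy chain, was called higher (2.17, limma adjusted p 0.033). The part of tissue composition in the differences between rats was not tested.

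Leukocyte signal followed this split in part. The summed level of 5 pan-leukocyte genes, with Cd53 (2.08), Lcp1 (1.74) and Ptprc (1.5) called higher, was 6.77 to 14.9 in normal tissue. In OSCC it was 24.3 to 41.2 in the same 7 animals, 20.9 in animal 21, and 10.4, 8.46 and 9.00 in animals 17, 22 and 24. Of 11 macrophage genes, 7 were called higher, among them Cd14 (2.11), Cd68 (2.0) and Mrc1 (1.66), and Msr1, which no normal array showed above background and which was at least 1.28-fold higher. Their summed level was 15.5 to 37.0 in normal tissue and 25.2 to 78.5 in OSCC. The macrophage sum of animal 24 (50.5) was above that of animal 9 (48.5), and the summed level of 7 T cell genes in animal 21 (4.94) was above that of 6 of the 7 animals, so neither divided the tumours as Csf3r did. Of 6 eosinophil genes, the defining Prg2, Prg3, Epx and Il5ra were not called and 4 of the 6 were on no array well above background, while Siglec5 was called higher (2.47, with 1 array left out). Called higher were 6 of 7 T cell genes, led by Cd8a (3.11), Cd3e (1.70), Lck (1.49) and Cd2 (1.35), and 2 of 5 B cell genes, Blnk (1.84) and Cd79b, which was on no normal array above background and at least 1.62-fold higher. Called lower were 3 of 9 mast cell genes, Cma1 (-1.65), Ms4a2 (-1.36) and Hdc (-1.32), and all 4 red cell genes, Ahsp (-1.59), Alas2 (-1.33), Hba-a2 (-1.19) and Hbb (-1.13). The 4 keratins that mark squamous epithelium, with Krt5 and Krt14 among them, were well above background on every array and none was called, at an unadjusted p below 0.05 either. How much of the Cybb, Ncf1 and Fpr1 signal came from macrophages was not tested.

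**Figure D3:**
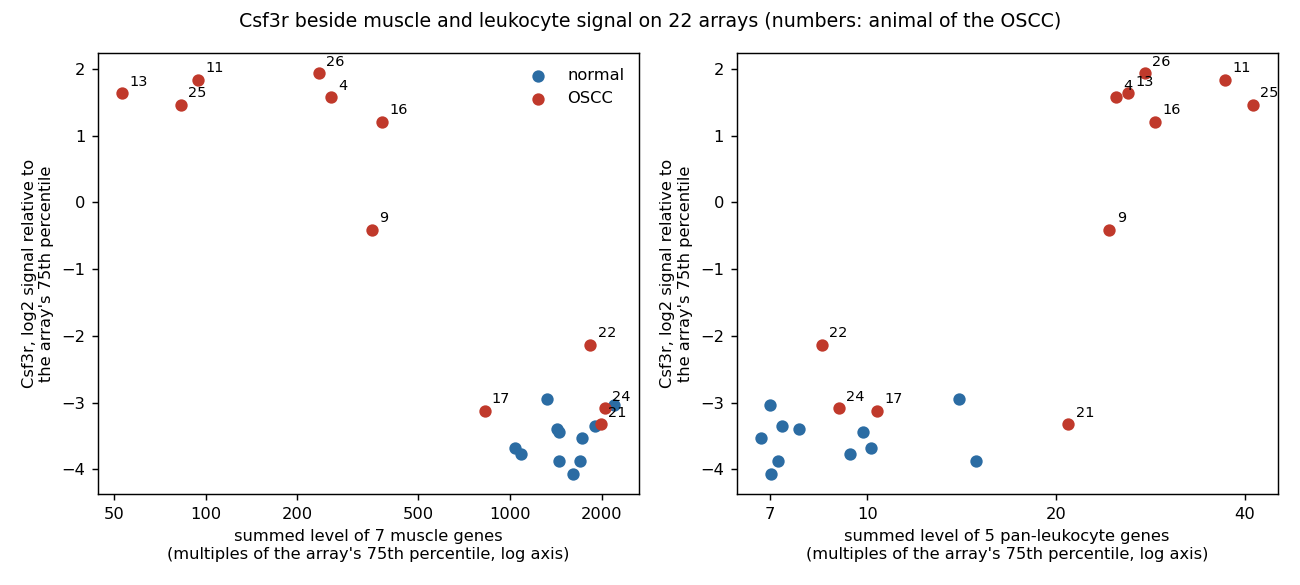
Log2 signal of Csf3r relative to the array's 75th percentile (vertical axes) against the summed level of 7 muscle genes (left) and of 5 pan-leukocyte genes (right), both in multiples of the 75th percentile on log axes, for 11 normal and 11 OSCC arrays with the animal number beside each OSCC. The OSCC of animals 17, 21, 22 and 24 has low Csf3r and muscle levels of 825 to 2053, and that of animal 21 has a leukocyte level of 20.9.

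The surroundings of the 8 genes were read from lists of 98 genes, of which 95 were on the array and 9 are oxidase genes of other cells. Of the 95, 54 were called higher by limma, 0 were called lower and 41 were not called, and their median difference was 1.25. The share called over all 30367 probes was 6.86% higher and 6.97% lower. At an unadjusted limma p below 0.05 with no limit on fold, 67 of the 95 were higher and 9 lower. By that measure 5736 of all probes were higher and 10925 lower. The methods' paired test with adjustment called 53 of the 95 higher and 0 lower. Without the oxidase genes of other cells, 52 of 86 were called higher and the median was 1.47. By the same limma fit, 49 of the 87 that are not among the 8 were called higher. Of the 95, 15 (15.8%) were on no array well above background, against 27.6% of all probes.

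Among receptors and adhesion molecules of the mature cell, 18 of 24 rose and the median difference was 1.98. Trem1, which amplifies inflammatory signalling of myeloid cells, and the C-type lectin receptor Clec4e were on no normal array well above background. They were at least 6.60-fold and 2.95-fold higher in OSCC, with limma adjusted p of 0.00044 and 0.00093. Trem1 differed by 7.38 in animal 11 and by 1.06 in animal 21. The receptor for neutrophil chemokines, Cxcr2, named here after its values were seen, rose by 2.95 (limma adjusted p 0.0019) and differed by 3.52 in animal 21, where Csf3r differed by -0.37. The related receptor Cxcr1, named likewise, was on no normal array above background and was not called (-0.34).

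Of the genes of the phagocyte oxidase, 4 rose: Cybb (2.88), Ncf4 or p40phox (1.57, limma adjusted p 0.0035), the small GTPase Rac2 (1.18, limma adjusted p 0.013) and Ncf1 (1.06). The partner of Cybb in the membrane, p22phox (Cyba), differed by 0.97 with a limma adjusted p of 0.018, just under the 2-fold limit. In animals 22 and 24, Ncf4 differed by -0.19 and -0.06 and Rac2 by -1.14 and -0.60, and Ncf1 was lower there as well. In animal 21, where Ncf1 differed by -0.17, Ncf4 differed by 0.82 and Rac2 by 0.56. Among oxidase genes of other cells, 2 of 9 were called higher, the epithelial regulators Noxa1 (2.57, limma adjusted p 0.0055) and Noxo1 (limma adjusted p 0.011, on no normal array above background and with no fold given), and the list median was 0.17.

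Of the azurophil granule genes, 10 were on the array and 0 were called by limma. At an unadjusted limma p below 0.05 with no limit on fold, 2 were higher and 4 lower. Of all 30367 probes, 5736 were higher and 10925 lower at that p, so lower values were common on the whole array too. Of the 10, 8 were on no array well above background: Mpo, the serine proteases Prtn3 (-0.55) and Ctsg (-0.67), the lipopolysaccharide-binding Bpi (-0.42), Ms4a3 (-0.45), and the defensins Np4 (-0.56), RatNP-3b (-0.03) and Defa5 (-0.52). The median difference of the list was -0.43, beside -0.24 for all probes. Only Cd63, a granule membrane tetraspanin made by most cell types, was well above background on all arrays (0.57, limma adjusted p 0.010). Azu1 was not on the array under that name.

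In the list of specific and gelatinase granule genes, 11 of 15 rose and the median difference was 2.13. Haptoglobin (Hp) and lipocalin 2 (Lcn2) were on no normal array above background and were at least 14.8-fold and 12.3-fold higher in OSCC. Chi3l1 (4.19) and arginase 1 (Arg1, 4.08) rose too, and their limma adjusted p were 8.7e-05 and 0.00012. Epithelial cells also make Lcn2 and Hp, and macrophages make Chi3l1 and Arg1. Lactoferrin (Ltf, -0.44) and Ngp (-0.72), both classical specific granule proteins, were on no array well above background. Camp was the only one of these 3 that was called.

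Cytosolic and induced products of the mature cell rose in 11 of 14 cases, with a median of 2.20. The chemokine Cxcl2 differed by 5.99, the calgranulins S100a9 and S100a8 by 4.78 and 4.51, and interleukin 1 beta (Il1b) by 4.17, with limma adjusted p between 6e-04 and 0.0016. One S100a8 pair lacked a value because a spot was left out. S100a9 differed by 3.50 in animal 17, 1.73 in animal 21, 2.46 in animal 22 and -0.57 in animal 24. Squamous epithelium also makes both calgranulins.

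Of the genes of the colony-stimulating factor axis 8 of 15 rose, with a median of 1.09. Besides Csf3r and Csf3 they included the feedback inhibitor Socs3 (2.39, limma adjusted p 0.00094) and interleukin 17A (Il17a), an inducer of G-CSF that was on no normal array above background and was at least 1.70-fold higher in OSCC (limma adjusted p 0.0054). Among 9 genes listed around granulocyte development, 5 rose, among them PU.1 (Spi1, 1.84), Runx1 (1.56) and Irf8 (1.54). This list does not separate genes that promote granulocyte development from genes that restrain it or mark other cells. Cebpe also rose (limma adjusted p 0.0052), but no normal array showed it above background and no fold is given. Gfi1, needed for granulocytic commitment, was on no array well above background.

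**Figure D4:**
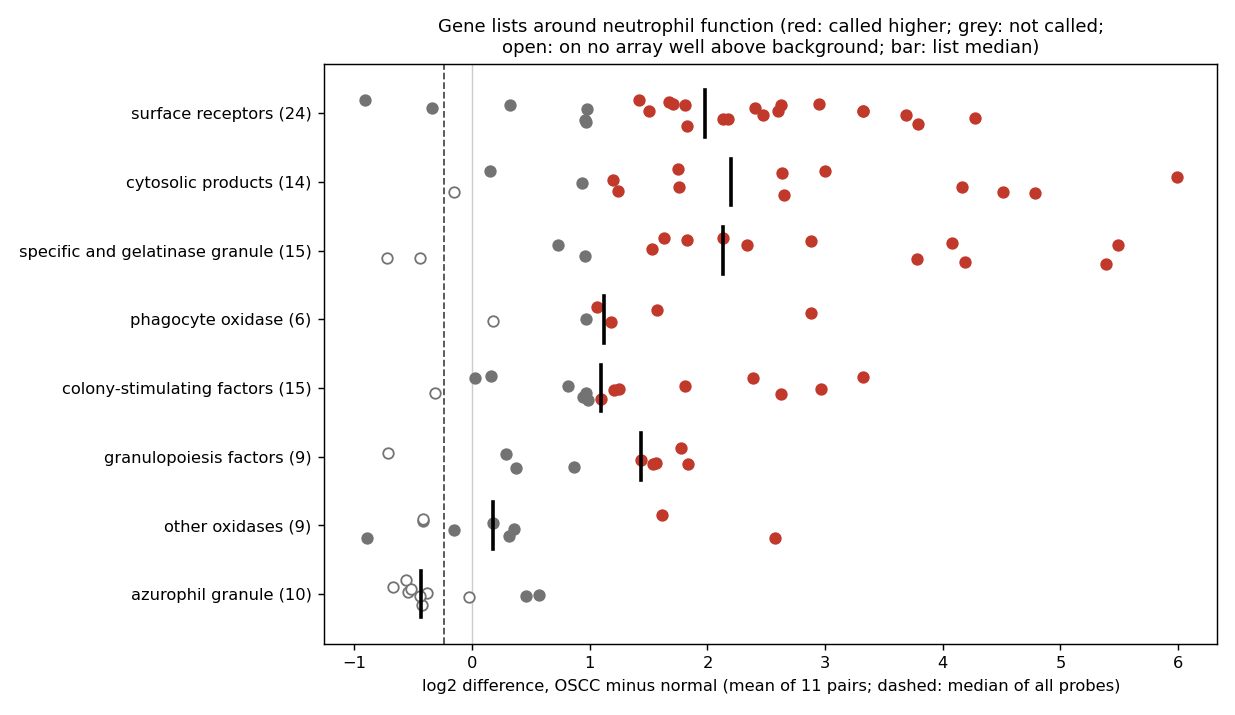
Log2 difference OSCC minus normal (horizontal axis, mean of 11 pairs) of each gene in 7 neutrophil lists and the oxidase genes of other cells (rows, with the number of genes on the array), red where called higher, grey where not called, open where no array was well above background, with black bars for list medians and a dashed line for the median of all probes at -0.24. Receptors, cytosolic products and specific granule genes lie to the right, around medians of 1.98 to 2.20, and the azurophil granule genes cluster near the dashed line with mostly open points.

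Promoters of 6 of the genes were held in the RefSeq tables for assembly GRCr8. The letters GAGGAA, the core bound by the myeloid factor PU.1 (Spi1, called higher above), were searched on both strands in the 250 bases before the start and found for Csf3r, Fpr1, Mpo and Cybb, 4 of 6, against 23.3% of 33469 rat promoters. The C/EBP letters TTNNGNAA were found for the same number of genes, 4 of 6, against 37.2%. The promoters of 3 genes are shown, a receptor and an oxidase gene that rose and a granule gene that was not detected, with the PU.1 letters in capitals.
Csf3r: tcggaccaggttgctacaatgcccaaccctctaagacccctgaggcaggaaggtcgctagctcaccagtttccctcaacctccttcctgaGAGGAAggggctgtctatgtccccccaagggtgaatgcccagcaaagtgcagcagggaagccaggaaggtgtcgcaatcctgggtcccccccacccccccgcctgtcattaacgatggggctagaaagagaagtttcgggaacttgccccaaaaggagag
Cybb: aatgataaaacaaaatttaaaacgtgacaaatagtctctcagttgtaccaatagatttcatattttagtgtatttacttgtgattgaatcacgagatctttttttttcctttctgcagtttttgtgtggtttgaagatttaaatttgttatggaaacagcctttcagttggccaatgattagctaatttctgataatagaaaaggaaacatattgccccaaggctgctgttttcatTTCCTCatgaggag
Mpo: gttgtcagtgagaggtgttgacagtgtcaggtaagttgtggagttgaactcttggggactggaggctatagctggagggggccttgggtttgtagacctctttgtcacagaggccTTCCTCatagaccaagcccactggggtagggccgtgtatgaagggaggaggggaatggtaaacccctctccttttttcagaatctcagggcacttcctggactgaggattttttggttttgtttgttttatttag
They lie at chr5:143582970-143583219 on the plus strand, chrX:16065066-16065315 on the minus strand and chr10:73092152-73092401 on the plus strand. The letters occurred once in each of the 3 and in neither of the Camp and Ncf1 promoters. A match of letters is a description and not a bound site.

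The genes whose 11 within-rat differences ran most like those of each member, among about 11640 gene symbols, were picked by Pearson's r over 11 pairs as a description. Closest to Csf3r were Timp1 (r = 0.98), Ifit3 (0.97) and Ednrb (0.97). Closest to Csf3 were Cklf (0.98), Asl (0.97) and Arpc1b (0.97), and closest to Camp were Glipr1 (0.98), Hs3st1 (0.97) and Col5a3 (0.97). Ncf1 ran most like Clec12a (0.98), Gpnmb (0.98) and Fam83a (0.97), and Cybb most like Ctss, Clec4a3 and Egr1 (all 0.97). Fpr1 gave Ccrl1 (0.97), Bmp4 (0.94) and Tmem132e (0.94). After the 2 pairs farthest from the median were left out, r stayed between 0.90 and 0.98. All points share the same 22 arrays, and most of these members separate animals 17, 21, 22 and 24 from the others, so a high r can restate that split. How much of each r came from it was not tested. Several of the closest genes, such as Asl (0.10, limma adjusted p 0.61), did not differ detectably on average.

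All 5 calls rest on the comparison of tissues across scan days. With scan day as a term, the differences were 4.46 for Csf3r, 2.76 for Csf3, 3.34 for Cybb, 1.59 for Ncf1 and 2.14 for Camp, and the limma adjusted p were between 0.085 and 0.16, so that none was called. With this term 0 probes in all were called higher and 3 lower, and 3 of the 8 genes were higher at an unadjusted limma p below 0.05 and 2-fold. The differences with this term are those of animals 4 and 9, whose OSCC was scanned with the normal arrays. No within-day value exists for the other 9 animals, for which tissue and scan day cannot be told apart.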

How the data were processed

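RNA of 22 tongue pieces was hybridised to one-color Agilent arrays. The intensity values deposited by the authors are Feature Extraction 9.5.3.1 processed signals, with spot background subtracted and spatial trend removed and no scaling between arrays. A deposited signal scaled by the authors to the 75th percentile of each array served as an alternative, and the deposited flags (other) marked outlier, background and saturated spots. Control spots and 9196 outlier spots (0.975%) were left out, log2 signals of a probe were averaged, and each array's 75th percentile was subtracted. The 8 genes were matched by array name, each to its brightest probe, and 7 of the 8 accessions matched the RefSeq table of assembly GRCr8. The accession of the Mpo probe had no match there. Coordinates of probes are rn4. The model in limma 3.58.1 (R 4.3.3) held rat and tissue, with Benjamini-Hochberg adjustment over all 30367 probes, and was tested on simulated data. The pairing comes from 1 animal giving both pieces. The deviations of paired pieces correlated between -0.21 and 0.24 (median -0.02). "Well above background" is the scanner software's flag, and a lower limit of fold sets the mean OSCC signal against the lowest signal well above background on each normal array, or the probe's own where higher. The methods' paired test is the t-test named by the study. Named genes are the 8, up to 4 called genes of each list with the largest differences, genes called against their list's majority, and all oxidase and azurophil granule genes, of which some are not reported here. The 3 genes most like each member were also named. Members and lists were chosen with earlier results of these data known. The number of arrays sets the precision.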

Additional observations from a re-analysis of the deposited data

How the results depend on the processing

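Of the 5 calls, 3 remained with normexp background correction, which ended those of Ncf1 (0.86) and Camp (0.59), and 0 with scan day as a term. With that term 0 of the 54 list genes called higher stayed called. Normexp called 36 list genes higher. With dim probes left out, those well above background on fewer than 11 arrays, 38 of 56 list genes were called higher. The sign turned for Mpo under quantile normalization (0.19) and for Elane under normexp (-0.051), and both probes lie at background. Over all probes, normexp called 686 higher and 1015 lower, against 2083 and 2118, and scan day as a term 0 and 3. Ncf1 was also not called under scaling by the array median (0.86) or with slide as a random block (1.12, limma adjusted p 0.054). Without the block for animal the number of members called higher was again 5, and that of list genes 54, so the pairing changed neither count. Leaving out each animal in turn gave 4 to 6 members and 50 to 60 list genes called higher, ended among the members only the call of Ncf1, without animal 9, 11, 16, 25 or 26, and added Fpr1 without animal 17, 21 or 22. Without animals 21, 22 and 24 there were 6 members and 62 list genes, and 3 list genes were called lower. Under the array median and quantile normalization 2 and 1 list genes were called lower. The mean contrast of mature and precursor genes kept its sign in every setting in which it was computed. It was not computed with dim probes left out, where both precursor probes were missing. Low signal limits Mpo, Elane, Camp and most azurophil granule genes, and each slide holds 1 tissue.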
